A study of Mus musculus with 4 samples.

Results

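Avp and Cartpt are 2 neuropeptide precursor genes among the 22399 genes listed in single-cell libraries of the mouse main olfactory epithelium. They were chosen from earlier results on the same data, in which both had messenger RNA in olfactory sensory neurons at levels that differed between neurons of different odorant receptors. Their levels by cell class and by receptor are therefore described here without a test. Tests were kept to other genes and to the comparison of the 2 sexes. The tissue came from wild-type C57BL/6J mice of 3 months, with no treatment or engineered allele, and was dissociated with papain. There were 4 libraries, 2 from females and 2 from males, made with a droplet kit that reads the 5' end of each transcript. Nothing in the sample descriptions says whether a library held 1 epithelium or several, so p-values measure the spread between these libraries only.

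Avp encodes the precursor of the hormone vasopressin, its carrier neurophysin II and the glycopeptide copeptin. Hypothalamic neurons release vasopressin into the blood, where it acts on the kidney and on vessels. Cartpt encodes the precursor of the peptides named cocaine- and amphetamine-regulated transcript, which are known in feeding and reward circuits. Both precursors are cut by proprotein convertases and stored in dense-core granules, whose contents are released on stimulation. An olfactory sensory neuron usually expresses 1 odorant receptor gene, and the receptor is tied to the place in the epithelium and to the glomerulus that the axon reaches. Omp, olfactory marker protein, is the standard marker of mature sensory neurons.

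The libraries held 41911 barcodes, between 10256 and 10777 each, with 100725429 to 111577458 unique molecular identifiers (UMIs) per library. Barcodes with at least 500 genes and at most 10% mitochondrial UMIs numbered 39715, and 19157 of them had at least 10 UMIs of Omp and were called Omp-positive (4852, 4672, 4724 and 4909 in female 1, female 2, male 1 and male 2, the order used throughout). Their median depth was 8891, 8559, 8334 and 8058 UMIs. An odorant receptor was assigned to 16781 of them (87.6%), which needed 3 UMIs of it or more and a share of 80% among the barcode's odorant receptor UMIs. Between 431 and 467 barcode sequences of each library also occurred in another library. Intervals on shares below are exact binomial and cover counting error only.

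Avp lies on chromosome 2 at 130580620 to 130582554 and Cartpt on chromosome 13 at 99898489 to 99901091, both on the minus strand of GRCm38. Both have their own identifier in the files, ENSMUSG00000037727 and ENSMUSG00000021647. Since their levels follow the receptor that a neuron expresses, the 250 bases before each start site are shown, as RefSeq gives them for GRCm38.p6. Avp has the window chr2:130582589-130582838 and Cartpt the window chr13:99900684-99900933, both written 5' to 3' on the minus strand. The RefSeq start of Cartpt lies inside the gene as annotated above, so its window overlaps that gene, while the Avp window does not. Capitals mark CACGTG, the palindromic E-box, in the Avp window and TGACGTCA, the cyclic AMP response element, in the Cartpt window.
Avp: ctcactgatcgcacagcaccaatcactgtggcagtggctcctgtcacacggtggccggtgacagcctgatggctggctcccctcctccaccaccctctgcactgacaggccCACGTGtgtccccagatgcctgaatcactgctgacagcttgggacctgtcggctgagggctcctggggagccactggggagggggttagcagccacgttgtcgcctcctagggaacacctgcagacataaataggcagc
Cartpt: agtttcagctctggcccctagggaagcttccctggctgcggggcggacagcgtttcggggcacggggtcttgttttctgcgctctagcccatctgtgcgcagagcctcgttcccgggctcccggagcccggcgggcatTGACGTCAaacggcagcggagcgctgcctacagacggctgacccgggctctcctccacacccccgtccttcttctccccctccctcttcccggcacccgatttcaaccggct
CACGTG began 139 bases before the start of Avp and was found in 6.02% of 32817 such windows of all RefSeq entries, searched on both strands. TGACGTCA began 112 bases before the start of Cartpt and was found in 1.55% of them. TGACGTCA contains TGACG on each strand, which 17.7% of windows held. The shorter CANNTG, of which CACGTG is one form, had 3 positions in the Avp window and 1 in the Cartpt window, and 66.2% of windows held it. Neither window held TATAAA (12.4% of windows), TAATTA (4.85%) or the palindromic Olf/EBF site (0.780%). These letters are a description of the sequence and say nothing of which factor binds there.

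Avp was found in few neurons at high level. Omp-positive barcodes held 3801, 2517, 3942 and 5192 Avp UMIs, or 81.1, 57.8, 93.5 and 122 CPM, the gene's UMIs per 1000000 UMIs of the summed barcodes, with a mean of 88.6 ± 26.8 (SD, n = 4 libraries). At least 1 Avp UMI was found in 3.79%, 3.62%, 2.92% and 4.56% of Omp-positive barcodes. At least 3 UMIs were found in 62, 58, 50 and 78 barcodes, or 1.28% (interval 0.981 to 1.64), 1.24% (0.944 to 1.60), 1.06% (0.787 to 1.39) and 1.59% (1.26 to 1.98). The 4 intervals of this share overlapped.

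The 1% of barcodes with the most Avp held 94.8%, 93.5%, 97.4% and 94.2% of its UMIs. Among barcodes with at least 3 Avp UMIs the median was 16, 12, 14 and 14 UMIs, and 16, 12, 12 and 21 barcodes had 50 or more. The highest barcode of each library had 699, 431, 1460 and 592 Avp UMIs. In one neuron Avp made up 12.6% of all UMIs. Without the highest barcode of each library the level was 66.2, 47.9, 58.9 and 108 CPM, so single barcodes moved the library level, most in male 1, where the highest held 37.0% of the Avp UMIs. Oxt, the oxytocin precursor gene that neighbours Avp on chromosome 2, had 5, 3, 2 and 5 UMIs in the same barcodes.

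Cartpt was found in most neurons. Omp-positive barcodes held 23384, 30500, 26229 and 31224 Cartpt UMIs, a level of 499, 700, 622 and 735 CPM (639 ± 105, SD, n = 4). At least 1 UMI was found in 60.1%, 63.1%, 64.2% and 66.8% of Omp-positive barcodes, and at least 3 in 39.7%, 43.5%, 43.8% and 47.2%. The 1% of barcodes with the most Cartpt held 10.5%, 25.4%, 14.6% and 13.7% of its UMIs, far below the shares for Avp, and the highest barcodes had 172, 2016, 987 and 626 UMIs. The median among barcodes with at least 3 UMIs was 9, 9, 9 and 10.

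**Figure D1:**
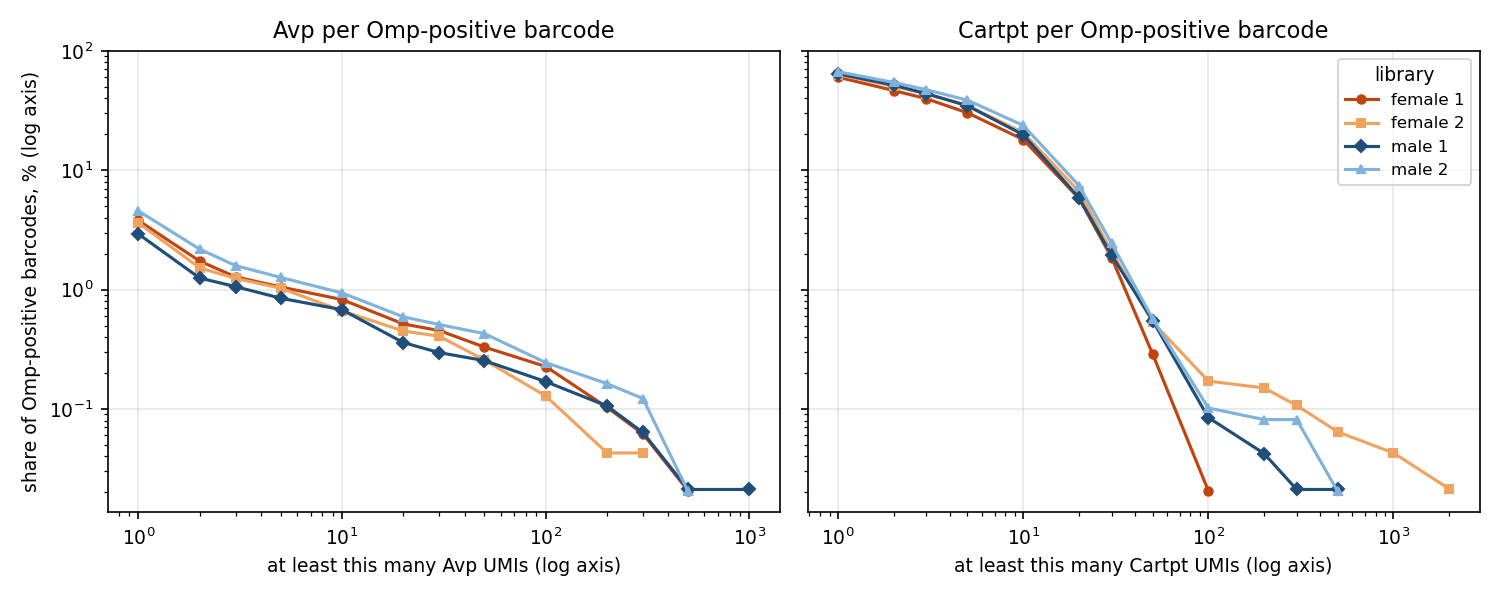
Percent of Omp-positive barcodes (log axis) with at least the given number of UMIs (log axis) of Avp and of Cartpt, 1 line per library. Cartpt starts at 60.1% to 66.8% of barcodes at 1 UMI and Avp at 2.92% to 4.56%, and the Avp lines fall slowly, with barcodes of at least 300 UMIs in all 4 libraries.

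The 2 genes were seldom high in the same neuron. Of 248 barcodes with at least 3 Avp UMIs, 54 (21.8%) also had at least 3 Cartpt UMIs, by library 16.1%, 17.2%, 28.0% and 25.6%. Of barcodes without Avp, 40.2%, 44.0%, 44.1% and 47.7% had at least 3 Cartpt UMIs. The share was lower among the Avp barcodes in 4 of 4 libraries, although their median depth was higher (11574 against 8406 UMIs). Of the 8346 barcodes with at least 3 Cartpt UMIs, the 54 were 0.647%.

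Both genes were low before the Omp stage. Classes were set by gates on marker genes. Avp was at 0.876 ± 0.313 CPM in cycling basal cells, 2.04 ± 0.530 in neuronal precursors and 4.79 ± 0.905 in immature neurons, marked by Gap43 and Gng8 and under the Omp gate (SD, n = 4). It was at 93.1 ± 31.3 CPM in mature neurons, which are Omp-positive and under the Gap43 and Gng8 gate. Its lowest mature library, at 55.6 CPM, was above its highest immature library, at 5.51. Omp-positive barcodes that also passed the Gap43 and Gng8 gate had the widest range of the neuronal stages, at 18.6, 70.1, 101 and 54.1 CPM.

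Cartpt was at 8.19 ± 3.12 CPM in cycling basal cells, 24.5 ± 4.59 in precursors, 43.9 ± 4.38 in immature neurons and 628 ± 83.2 in mature neurons (SD, n = 4). Mature libraries lay at 536, 621, 615 and 738 CPM and immature ones at 37.6, 46.5, 47.2 and 44.2, with no overlap. In barcodes with both Omp and Gap43 or Gng8 the level was 285, 1152, 675 and 713 CPM. That range held all mature libraries, but it rested in part on the few barcodes with at least 2 UMIs of Gucy2d that are described below. Without them the level was 285, 457, 404 and 384 CPM, below all mature libraries, which stayed at 537 to 738.

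Sustentacular cells, the supporting cells of the epithelium, served as background. They are deeper (median 13100 UMIs against 8058 to 8891 in Omp-positive barcodes), and 1.47% of their 5904 barcodes had at least 1 Avp UMI and 0.0678% at least 3. For Cartpt the shares were 13.8% and 0.474%. Their levels were 1.38 ± 0.369 CPM for Avp and 13.2 ± 1.59 CPM for Cartpt (SD, n = 4), and all non-neuronal classes summed gave 1.45 ± 0.307 and 13.4 ± 1.44. Per 100 Omp UMIs in the same barcodes, sustentacular cells held 0.914 Avp and 8.76 Cartpt UMIs and Omp-positive barcodes 1.09 and 7.87. Free RNA, mixed droplets and low expression were not told apart here, and non-neuronal levels are read as background.

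Thinned to 2000 UMIs each, 1.62% of Omp-positive barcodes had an Avp UMI, against 1.42% of immature neurons and 0.232% of sustentacular cells. For Cartpt these shares were 44.1%, 7.03% and 2.83%. Of immature neurons 0.515% had at least 3 UMIs of Avp and 4.29% of Cartpt. Within Omp-positive barcodes, the 1905 under 4000 UMIs were at 17.6 CPM of Avp and 334 of Cartpt, and the 17252 from 4000 UMIs at 91.0 and 649. The part of depth in these levels was not tested.

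**Figure D2:**
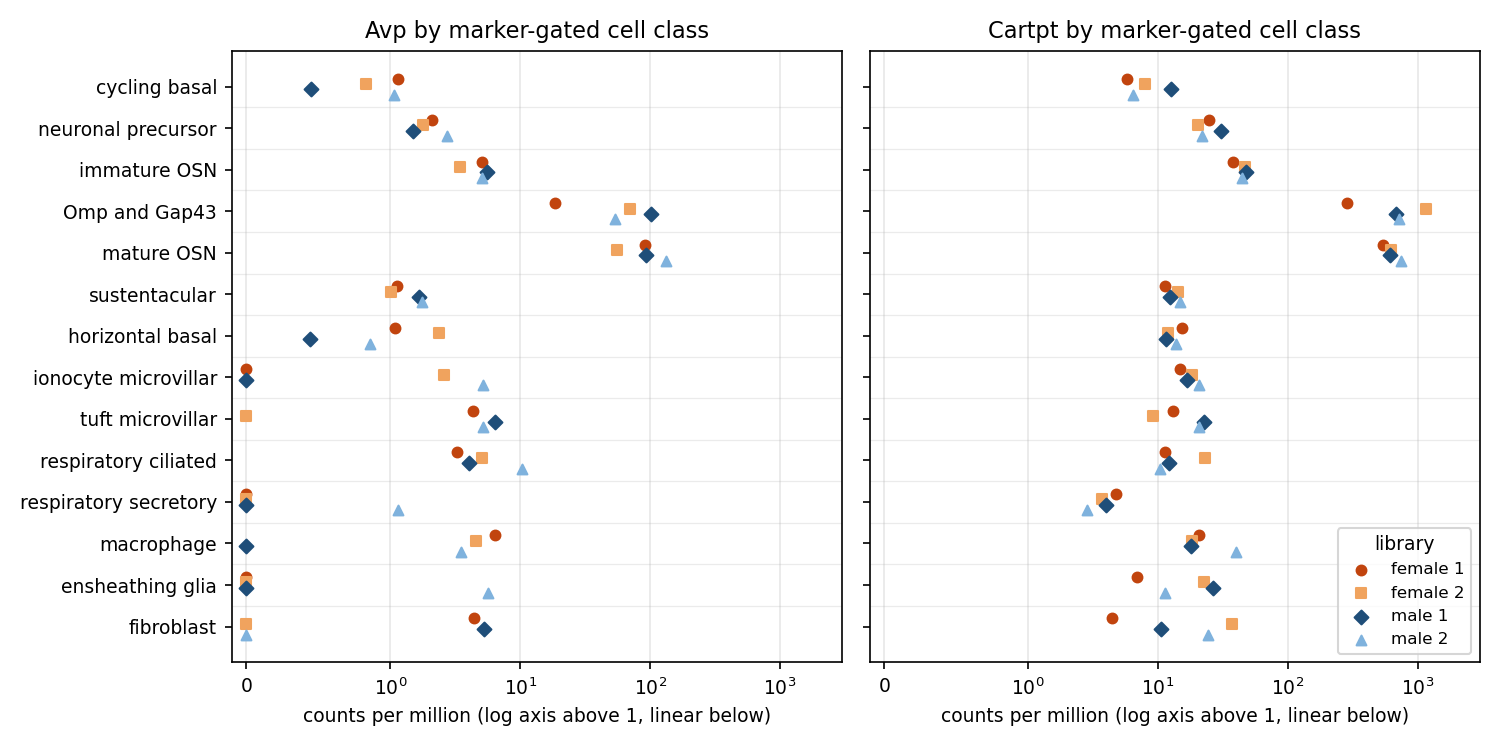
CPM of Avp and of Cartpt (horizontal axis, logarithmic above 1 and linear below) in each marker-gated class, 1 point per library; OSN stands for olfactory sensory neuron. The mature libraries of both genes lie above all immature, precursor and sustentacular libraries, and among the neuronal stages the barcodes with both Omp and Gap43 or Gng8 spread most.

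Avp followed the receptor. For levels by receptor, 59 receptors with at least 10 assigned barcodes in every library were used (5333 barcodes). Neurons of Olfr1346, on chromosome 7 at 6467101 to 6478112, were highest, at 5381, 3806, 4658 and 12339 CPM (6546 ± 3915, SD, n = 4). Of their 76 barcodes 90.8% had an Avp UMI and 78.9% had at least 3, which were 15 of 21, 11 of 17, 13 of 14 and 21 of 24 barcodes. The median was 18 UMIs and the highest 592, and 9.21% had none.

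Neurons of Olfr741, on chromosome 14 at 50472738 to 50488338, came next, at 1230, 2401, 2981 and 554 CPM (1792 ± 1101, SD, n = 4). Of 126 barcodes 46.8% had an Avp UMI, and 17 of 37, 10 of 33, 10 of 27 and 8 of 29 had at least 3. The ranges of Olfr1346 and Olfr741 did not overlap, and the lowest library of the latter was above all libraries of the next receptor. That was Olfr727, also on chromosome 14, with 183, 346, 3.03 and 98.7 CPM and at least 3 UMIs in 9 of 177 barcodes. From there on neighbours in the order overlapped. Olfr743 had a mean of 92.4 CPM, and Olfr211, Olfr742, Olfr15, Olfr536, Olfr711 and Olfr124 had means from 50.1 down to 31.4.

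The median of the 59 receptors was 3.00 CPM. No Avp UMI was found in 10 of them and no barcode with 3 in 41. Just outside the limit of 10 barcodes per library stood Olfr729, on chromosome 14 at 50144731 to 50152910, with 8, 10, 8 and 10 barcodes. Its neurons were at 4093, 1629, 2078 and 2753 CPM of Avp, a range that reached into those of both Olfr1346 and Olfr741, and 17 of 36 barcodes (47.2%) had at least 3 UMIs. Of 495 receptors with at least 10 barcodes over all libraries, 313 had no Avp UMI. In that wider set Olfr1414 followed at 457 CPM, where 1 of 33 barcodes held 123 of 147 UMIs.

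Neurons of Olfr1346, Olfr729 and Olfr741 were 238 barcodes, and they held 61.7% of all Avp UMIs and 122 (49.2%) of the barcodes with at least 3. In all, 45 receptors had such a barcode, and 29 of the 45 had exactly 1. Barcodes with no assigned receptor held 27.6% of the UMIs, among them the barcodes with 1460 and 699 Avp UMIs, whose top receptor had 1 UMI each. Of the 52 barcodes with at least 3 Avp UMIs and no assigned receptor, 20 had no receptor at 3 UMIs and 27 had at least 2 such receptors.

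Avp was far lower in neurons of the receptors that neighbour these in the genome. Beside Olfr1346, neurons of Olfr1336 were at 2.88 CPM, those of Olfr5 at 6.19, those of Olfr1347 at 2.78 and those of Olfr1344 at 0 Avp UMIs (all libraries summed). Beside Olfr741, neurons of Olfr742 were at 31.8 CPM, Olfr743 at 88.6 and Olfr740 at 11.6. Beside Olfr729, those of Olfr728 were at 0.648 CPM, and Olfr730 had none. Next to Olfr728 lies Olfr727, at 191 CPM the highest of these neighbours. All were below Olfr1346, Olfr741 and Olfr729.

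Cartpt differed more gradually between receptors. Its median over the 59 was 114 CPM, none of them was at 0, and 29 had at least 3 UMIs in 10% or more of their barcodes. Neurons of Olfr1271, on chromosome 2, were at 1175, 1494, 1451 and 1232 CPM (1338 ± 158, SD, n = 4), with at least 3 UMIs in 64 of 69 barcodes (92.8%). Olfr455 had a similar mean, 1344 ± 2349, from 308, 4864, 67.5 and 135 CPM, but 1 barcode of 980 UMIs held 83.1% of its Cartpt. Olfr55 followed at 556 ± 160 CPM, without overlap with Olfr1271, and Olfr1247, Olfr1110, Olfr140, Olfr820, Olfr730, Olfr1423 and Olfr309 had means from 509 down to 365. Lowest was Olfr1508, on chromosome 14, at 10.9, 0, 10.7 and 26.3 CPM, which overlapped with the sustentacular level.

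**Figure D3:**
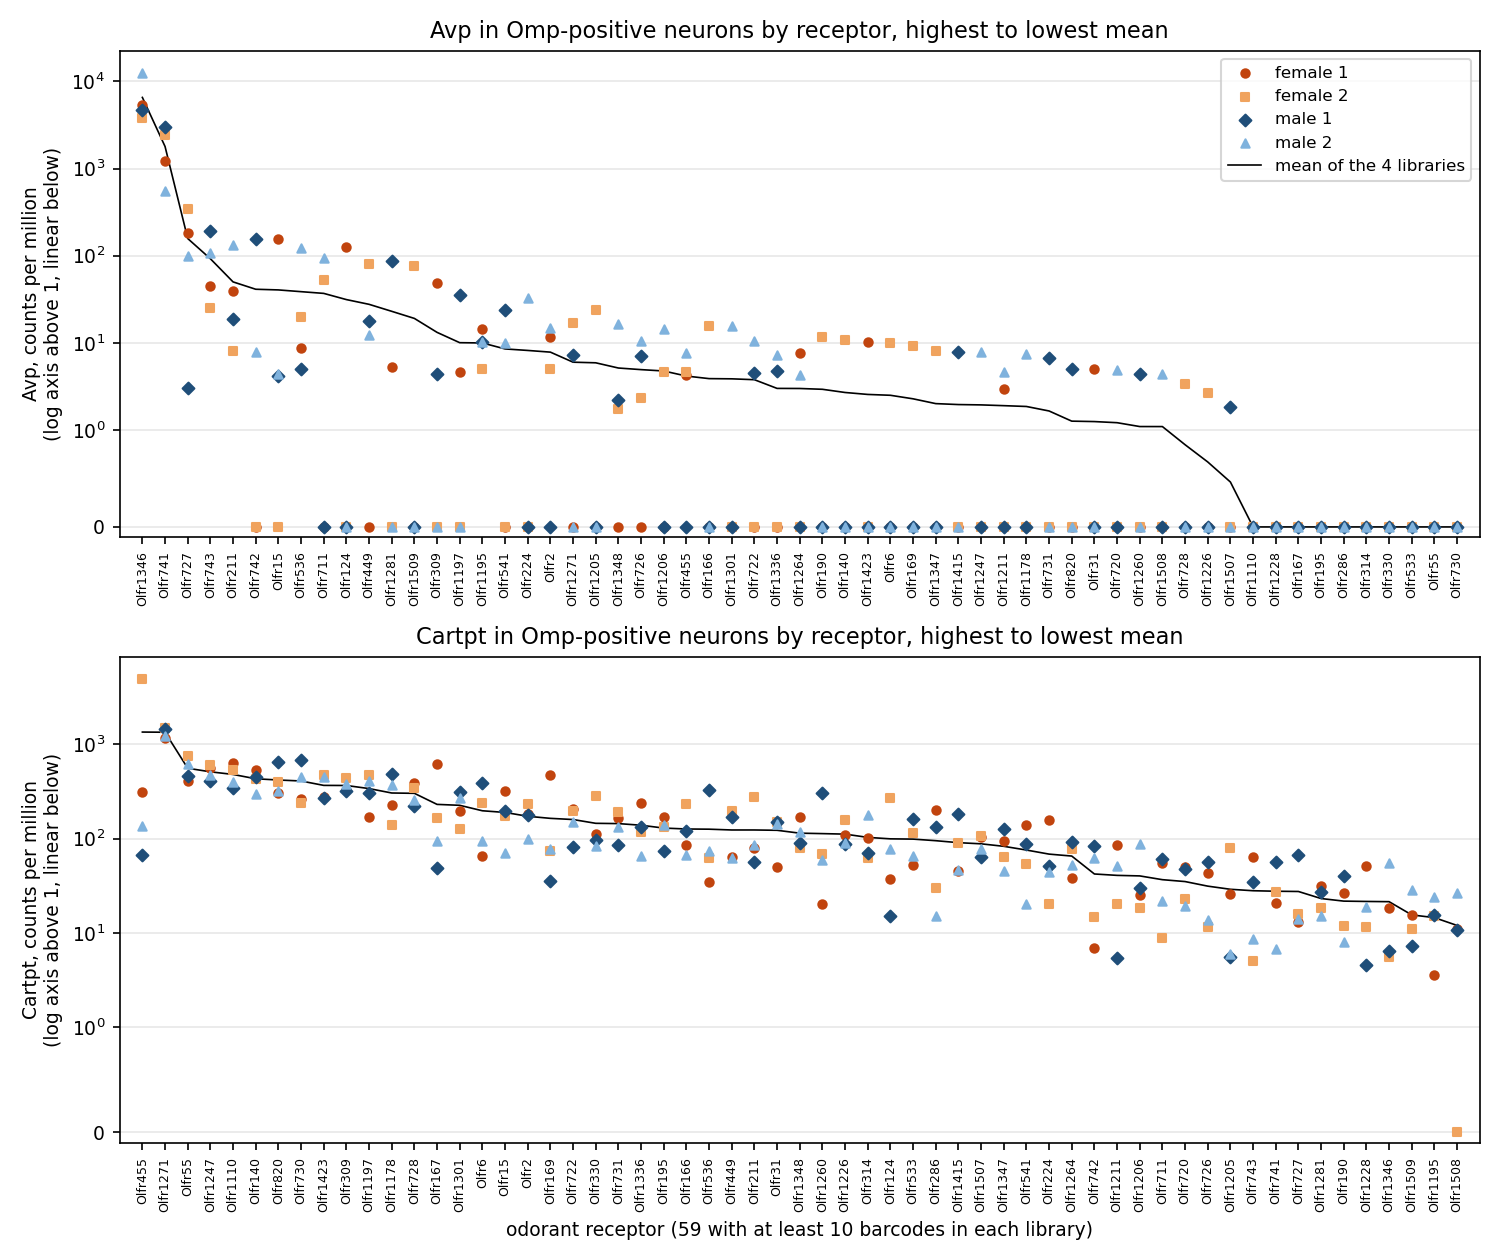
CPM of Avp and of Cartpt (vertical axis, logarithmic above 1 and linear below) by odorant receptor in order of the mean, 1 point per library and a line for the mean. Olfr1346 and Olfr741 stand above all other receptors for Avp, while for Cartpt neighbours in the order overlap except Olfr1271 and Olfr55.

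Receptors that led for Avp were low in Cartpt. With all libraries summed, Cartpt was at 25.4 CPM in neurons of Olfr1346, 26.3 in Olfr741, 24.4 in Olfr727 and 69.4 in Olfr729, against a median of 510 CPM over the 495 receptors. Over the 59, which leave out Olfr729, the median was 114 CPM and the lower quartile 40.4. Low Cartpt was not particular to these receptors. Their neighbour Olfr726 was at 30.1 CPM of Cartpt and 4.31 of Avp, while Olfr728 and Olfr730 were at 294 and 451 CPM of Cartpt. Across receptors, the log2 levels of Avp and Cartpt had Pearson r = -0.353 over 59 and -0.257 over 495. The receptors share libraries and differ in depth, so these are descriptions.

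Cartpt was high in neurons of class I receptors, which form 1 cluster on chromosome 7 and are expressed in the dorsal zone. None of them was among the 59. Of 495 receptors, 47 lay in that cluster, and all 47 had at least 3 Cartpt UMIs in 50% or more of their barcodes, with a lowest level of 712 CPM and a median of 1741. Of the other 448 receptors 213 reached that share, and their median was 433. Over single barcodes, 1180 with a class I receptor were at 1995 ± 348 CPM and the 15601 with another odorant receptor at 527 ± 61.4 (SD, n = 4), with at least 3 UMIs in 90.9% and 38.9%. Without Gucy2d barcodes these levels were 1741 ± 82.5 and 527 ± 61.5. Class I neurons were the shallower ones, with a median of 7551 UMIs against 8460. Avp was at 4.70 ± 3.27 CPM in class I neurons and at 81.7 ± 36.0 in the others, of whose 11138 Avp UMIs neurons of Olfr1346, Olfr729 and Olfr741 held 9530. Over receptors the median of Avp was 0 in both groups, with upper quartiles of 1.40 and 4.36 CPM.

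Outside the class I cluster, Cartpt followed genes that mark the zones of the epithelium. Nqo1, a quinone reductase of dorsal neurons, was at 50 CPM or more in neurons of 101 other receptors, whose median for Cartpt was 1717 CPM (quartiles 1428 and 2156). The other 347 receptors had a median of 295 CPM (115 and 561). Across all 495 receptors the log2 levels of Cartpt had r = 0.674 with Nqo1 and 0.671 with Acsm4, another dorsal gene, and -0.685 with Nrp2, an axon guidance receptor of ventral neurons. Among the 448 outside the cluster these were 0.623, 0.616 and -0.675. The limit of 50 CPM was set after the values were seen.

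**Figure D4:**
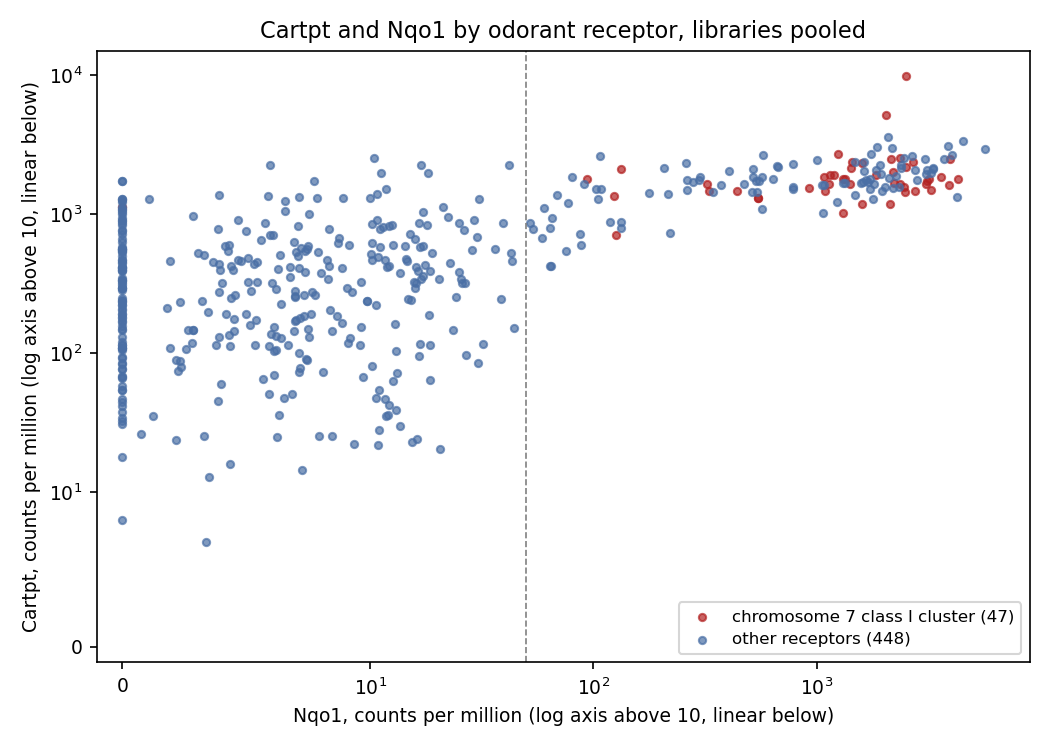
CPM of Cartpt against CPM of Nqo1 (both axes logarithmic above 10 and linear below, dashed line at 50 CPM of Nqo1) for 495 odorant receptors, 1 point per receptor with libraries summed and the class I cluster in its own colour. All 47 class I receptors lie at 712 CPM of Cartpt or above, and receptors under 50 CPM of Nqo1 spread down to 6.80.

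Cartpt was also high in barcodes that carry markers of other sensory neurons. The 133 barcodes with at least 3 UMIs of trace amine-associated receptors were at 996 ± 348 CPM, and 73.7% had at least 3 UMIs. Gucy2d, a guanylate cyclase, marks a small class of sensory neurons that use cyclic GMP. Of 38 Omp-positive barcodes with at least 2 Gucy2d UMIs, 52.6% had at least 3 Cartpt UMIs, and the level was 225, 17560, 7492 and 11265 CPM (9135 ± 7248, SD, n = 4), low in female 1 alone. An odorant receptor was assigned to 9 of the 38, among them the barcode with 1227 Cartpt UMIs, assigned to Olfr683, and one with 626, assigned to Olfr550. The 38 barcodes held 7.08% of all Cartpt UMIs. No Avp UMI was found in them, and 0 of 38 allows a share of barcodes with an Avp UMI of up to 9.25%. Of the 13 with at least 10 Gucy2d UMIs, 8 had at least 3 Cartpt UMIs and the median was 65, and of the 25 with fewer, 12 did and the median was 2. Without Gucy2d barcodes the Omp-positive level of Cartpt was 596 ± 79.3 CPM.

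The order of receptors was compared between the sexes. Over 59 receptors the log2 levels in females and in males had r = 0.863 for Avp (Spearman's rank correlation 0.338) and 0.805 for Cartpt (rank correlation 0.794). Without Olfr1346 and Olfr741, farthest from the median, r for Avp was 0.456, so the relation for Avp rested on those receptors. Without Olfr1271 and Olfr1508, r for Cartpt was 0.775.

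The genes most like each member over the 59 receptors were named by Pearson's r of log2 CPM among 6691 genes, with no test. For Avp these were Trp53i11 (r = 0.677), Pop5 (0.657), Ptprn (0.653), which codes for a granule membrane protein, Etv4 (0.629), an ETS transcription factor, and Dclk1 (0.621), a microtubule-binding kinase. Lowest were Umodl1 (-0.629), Calm2 (-0.618), a calmodulin gene, and Chga (-0.613), chromogranin A of dense-core granules. Avp had a median of 3.00 CPM over these receptors, so its values of r can rest on Olfr1346 and Olfr741. No r of these genes without those receptors is given here. For Cartpt the highest were Prnp (0.771), the prion protein gene, Slc45a1 (0.751), Aplp2 (0.711), Npdc1 (0.709) and Selenot (0.673). Lowest were Shisa5 (-0.725), Prdx2 (-0.715), a peroxiredoxin, and Nfia (-0.710), a transcription factor.

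Males and females were compared over the Omp-positive sums of the 4 libraries with edgeR. The means of Avp were 69.4 ± 16.5 CPM in females and 108 ± 20.3 in males (SD, n = 2 each), which did not overlap, and the exact permutation p of 0.333 is the smallest that 2 against 2 libraries can give. By the quasi-likelihood test of edgeR, adjusted after Benjamini-Hochberg, Avp was 0.67 higher in males on the log2 scale (SE 0.21, adjusted p = 0.597), which did not pass. Without the highest Avp barcode of each library the sexes overlapped, at 66.2 and 47.9 CPM in females and 58.9 and 108 in males, and the log2 difference was 0.59 (SE 0.34, adjusted p = 0.684 by edgeR). Cartpt was at 599 ± 142 and 679 ± 79.9 CPM, with overlap, and 0.22 higher in males (SE 0.19, adjusted p = 0.788). Over all 14630 genes tested, 2 passed, the Y-linked Eif2s3y and Ddx3y (0.0137%), and 1166 had an unadjusted p under 0.05. DESeq2 called 353 genes, neither member among them. No gene of the peptide lists below passed with edgeR.

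The share of neurons with at least 3 Cartpt UMIs was 41.6% ± 2.73 in females and 45.5% ± 2.45 in males (SD, n = 2 each), without overlap and with an exact permutation p of 0.333. For Avp this share was 1.26% ± 0.0257 and 1.32% ± 0.375, with overlap. Leaving out female 1 brought the sex difference of Cartpt CPM to -0.0127 on the log2 scale.

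Genes that process peptides were measured in the same neurons. Between Omp-positive and immature barcodes, paired by library, edgeR's quasi-likelihood test (adjusted after Benjamini-Hochberg) called 73.2% of 14168 genes tested, 37.2% higher and 35.9% lower in Omp-positive barcodes. All 23 genes of peptide processing and dense-core granules were tested, and 14 were higher and 5 lower, with a median log2 difference of 0.52 against 0.02 over all genes. Chga rose from 353, 371, 368 and 401 CPM in immature to 4066, 4132, 4136 and 4124 CPM in Omp-positive barcodes, and Chgb, chromogranin B, rose from 17.1, 23.1, 18.0 and 19.1 to 93.2, 94.7, 94.0 and 101. Neither gene's groups overlapped. Ptprn rose by 2.25 and Cpe, the carboxypeptidase that trims cut peptides, by 0.56 on the log2 scale.

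Of the convertases, Pcsk6 rose by 2.11, Furin rose by 0.90 and Pcsk1, the prohormone convertase 1 of regulated granules, fell by 1.77 on the log2 scale. Pcsk1 was at 18.4, 20.3, 15.0 and 12.1 CPM in immature and 4.37, 4.22, 3.63 and 4.10 in Omp-positive barcodes. Pcsk2, the prohormone convertase 2, had a log2 difference of -0.12 (adjusted p = 0.485 in the same edgeR test). Vgf, a granule protein, fell by 2.35, Pam, the enzyme that amidates peptides such as vasopressin, fell by 1.10, and Scg2, secretogranin II, fell by 0.63. Of the 20 axon and zone genes 14 were higher and 6 lower, and of 9 immediate early genes 4 and 3. Without scaling between libraries the calls were 4064 higher and 6595 lower in place of 5276 and 5089, and the median of all genes moved to -0.19.

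Among vasopressin, oxytocin and candidate CART receptors, 2 of 7 genes passed the filter on low counts. Lnpep, an aminopeptidase that cleaves vasopressin and oxytocin, was higher in Omp-positive barcodes by 0.46 and Gpr160, a candidate receptor of CART peptide, fell by 1.01 on the log2 scale. The receptor genes Avpr1a, Avpr1b, Avpr2 and Oxtr did not pass the filter. Of 31 other neuropeptide precursor genes 11 were tested, of which 3 were higher and 7 lower. Pomc, the precursor of melanocortins and beta-endorphin, was higher by 1.11 and Calca by 1.68. Tac1, of substance P, fell by 4.96, Grp by 3.68 and Gal, of galanin, by 3.13 on the log2 scale.

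Between the 59 receptors, an F test over 4 libraries per receptor (edgeR's quasi-likelihood test, Benjamini-Hochberg adjustment) called 31.8% of 10107 genes. Of the peptide processing genes 13 of 18 tested passed, with a median F of 2.89 against 1.23 over all genes. Ptprn led them, then came Cadps2 (F = 14.0), a priming factor of dense-core granules, and Chgb (9.84), Scg3 (6.58) and Chga (6.32) followed. All 19 genes tested of the list of axon and zone genes passed, with a median F of 35.4. That list was written with earlier results of these data known, so its passes are a description and no independent support. Pomc was the only other precursor tested and passed (F = 2.56), as did Lnpep (F = 1.66) but not Gpr160, and 8 of 8 immediate early genes.

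Neurons with and without Avp were compared within receptors, since receptor and Avp go together. Neurons with at least 3 Avp UMIs were paired with ones of the same receptor and library and without Avp. Such neurons with an assigned receptor numbered 48, 45, 38 and 65. Of them 35, 34, 24 and 38 found a partner, over 12, 15, 12 and 23 receptors. Olfr741 gave 17, 10, 10 and 8 of the pairs, Olfr729 gave 3, 4, 3 and 3, and Olfr1346 gave 3, 3, 0 and 1. The receptor highest in Avp was thus little represented in the pairs. The neurons with Avp were deeper, with median depths of 12173, 11833, 12457 and 10801 against 10652, 10499, 10370 and 9622 UMIs. In edgeR's quasi-likelihood test on the library sums, 103 of 6583 genes passed (1.56%), 46 higher and 57 lower. The direction was the same in 4 of 4 libraries for 43 of the former and 46 of the latter, as it was for 17.3% of all genes tested. With pairs held within 20% of each other's depth 17 genes passed, 15 of them among the 103, and DESeq2 called 15, all among the 103. Without female 2 the count was 62 and without male 1 it was 59. Without scaling between libraries the calls were 34 higher and 67 lower.

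Trp53i11, the gene most like Avp over receptors, led the genes that were higher. It was at 250, 213, 218 and 242 CPM in neurons with Avp and at 86.6, 80.6, 72.0 and 82.6 in their partners, without overlap. The log2 difference was 1.53 (SE 0.15, adjusted p = 6.07e-11 by edgeR), and it held with DESeq2 (9.63e-06) and with pairs of like depth (8.48e-05). Cabp1, a calcium-binding protein of neurons, had 17, 22, 10 and 21 UMIs against 3, 1, 1 and 3. Ppa1, a pyrophosphatase, was higher by 0.88, Stmn4, of the stathmins that act on microtubules, by 0.70, Mfge8 by 1.28 and Coch by 1.17 on the log2 scale. Of these, Stmn4 missed the threshold with pairs of like depth (adjusted p = 0.296 by edgeR). Mfge8 and Coch missed it with DESeq2 (0.0938 and 0.0771). In the Cartpt pairs described below, Stmn4 and Mfge8 were higher too, by 0.76 and 1.25 on the log2 scale, so they were not particular to Avp. Ptprn was the only 1 of 14 tested peptide processing genes to pass, higher by 0.96 on the log2 scale, and missed the threshold with DESeq2 (adjusted p = 0.132) and with pairs of like depth (0.0781).

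Tubb2b, a tubulin gene, was lower in neurons with Avp, at 149, 86.3, 39.6 and 53.8 CPM against 230, 363, 148 and 217. Crabp1, a binding protein of retinoic acid, fell by 3.07, Tubb5 by 1.03 and Tmsb10, an actin-binding thymosin, by 0.73 on the log2 scale. Zfp36 fell by 1.85, Hspb1 by 1.39, Ccn1 by 1.55, Cldn7 by 2.22 and Qdpr by 1.51. Of these, Zfp36 and Hspb1 missed the threshold with DESeq2, and Hspb1 and Ccn1 were higher with Avp in male 1. Omp itself was higher by 0.15 (adjusted p = 0.335 by edgeR). Of the axon and zone genes 4 of 13 tested passed, with S100a5 higher by 0.47, Ckb by 0.44 and Pcp4l1 by 0.37, while Calb2 fell by 1.07 on the log2 scale. Between Omp-positive and immature barcodes these 4 genes had the same directions, with log2 differences of 6.22, 2.58, 3.57 and -1.18. Neurons with and without Avp were thus not shown to be alike in stage, and the part of stage was not tested. Of 7 immediate early genes, Nr4a1 alone passed and fell by 1.16. It passed with DESeq2 but not with pairs of like depth (log2 difference -0.70, adjusted p = 0.746 by edgeR). S100a5 is known to follow activity, but activity was not measured in these dissociated cells. No peptide receptor or other precursor passed, with 1 of each tested.

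Cartpt itself is described in these pairs without a test, since both genes were chosen for their levels in these neurons. Its UMIs were 55, 91, 77 and 135 in neurons with Avp against 25, 60, 29 and 116 in their partners, and 6, 6, 7 and 9 neurons had at least 3 against 2, 6, 1 and 5. Without the barcode with most Cartpt on each side, the UMIs were 37, 61, 55 and 100 against 10, 42, 2 and 70. The sum was higher in 4 of 4 libraries with and without those barcodes. The log2 difference with them was 0.60, and it was 0.06 when 1 Avp UMI was enough to count as positive.

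**Figure D5:**
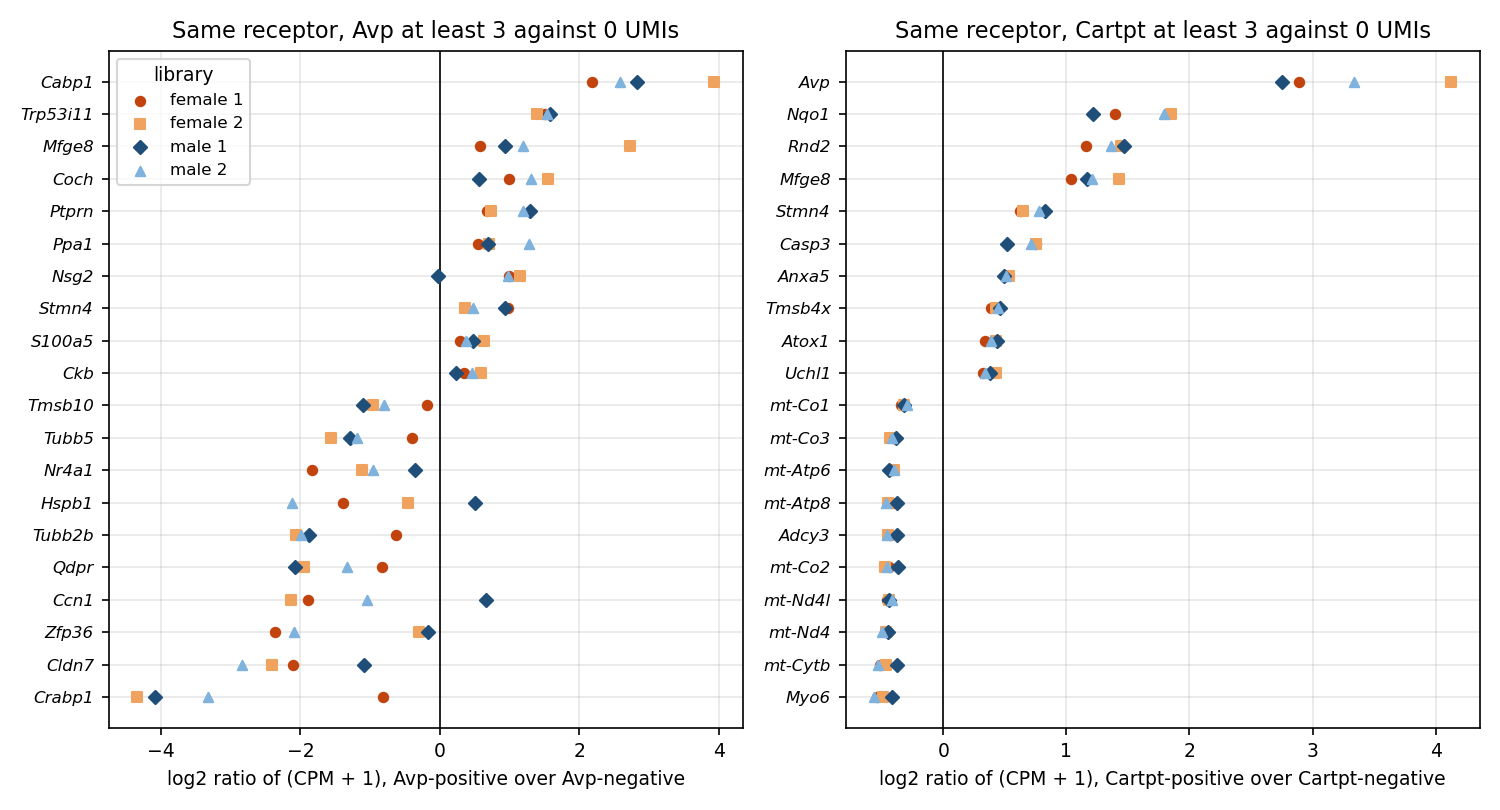
Log2 ratio of CPM + 1 (horizontal axis) between paired neurons of the same receptor with at least 3 and with 0 UMIs of Avp (left) or Cartpt (right), 1 point per library, for the 10 genes of lowest p in each direction. The 4 points of Trp53i11 lie together on the right of 0, those of Crabp1 all lie on the left, and Nqo1 and Rnd2 lie on the right in every library for Cartpt.

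Neurons with and without Cartpt were paired in the same way, in 473, 387, 403 and 361 pairs. Their depths differed more, at 11148, 11364, 11227 and 10245 against 8563, 8498, 7976 and 7951 UMIs. Of 11059 genes 1553 passed (14%), 8.28% higher and 5.76% lower. Pairs of like depth gave 641 genes, 451 of them shared, and DESeq2 453. Without female 1 the count was 1004, and without female 2 it was 1026. Without scaling between libraries the calls were 655 higher and 933 lower, in place of 916 and 637.

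Nqo1 was higher in neurons with Cartpt also within receptors, at 31.7, 50.1, 54.4 and 116 CPM against 11.4, 13.2, 22.9 and 32.8. Its log2 difference was 1.67 (edgeR, adjusted p = 4.44e-07), and 1.38 with pairs of like depth (0.000476). Acsm4, the other dorsal gene, was higher by 1.65, and Nrp2 fell by 0.27, Cidea by 0.28 and Cd55, an inhibitor of complement, by 0.42 on the log2 scale. Of 20 axon and zone genes tested 6 were higher and 3 lower. Rnd2 was at 114, 107, 114 and 119 CPM against 50.6, 38.6, 40.6 and 45.7, without overlap, and was higher by 1.40.

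Of 20 peptide processing genes tested, 7 were higher in neurons with Cartpt and 1 was lower. Pcsk1 was higher by 1.42 and Pcsk2 by 1.20, the convertases that cut the CART precursor, and Pcsk1n, an inhibitor of the former, by 0.42 on the log2 scale. Over all Omp-positive barcodes Pcsk1 had only 205, 184, 153 and 174 UMIs and Pcsk2 485, 349, 418 and 433. A part of these convertases in CART processing was not tested. Cpe was higher by 0.33, Scg5, the chaperone of the Pcsk2 convertase, by 0.25 and Chgb by 0.20, while Chga fell by 0.13. With pairs of like depth 4 of 18 passed and with DESeq2 3 of 20. Of the genes named for the lowest p among those lower, mt-Co3, of the respiratory chain, fell by 0.37 and Adcy3, the adenylyl cyclase of odorant signalling, fell by 0.39 on the log2 scale. Of 9 immediate early genes Egr1 (0.57) and Btg2 (0.27) were higher on the log2 scale. With pairs of like depth 4 of 7 passed, 1 higher and 3 lower, with a median log2 difference of -0.15. DESeq2 called 1 of 9, which was higher. Lnpep fell by 0.17 on the log2 scale but passed in neither alternative. Neither of 2 other precursors tested passed. Omp had a log2 difference of 0.06 (adjusted p = 0.109 by edgeR) and Gap43 one of -0.18 (0.174). With pairs of like depth both passed, Omp higher by 0.10 (adjusted p = 0.000191 by edgeR) and Gap43 at -0.70 (0.000132). Neurons with and without Cartpt were thus not shown to be alike in stage.

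Avp is likewise described in the Cartpt pairs without a test. Its UMIs were 212, 463, 102 and 1068 in neurons with Cartpt against 17, 16, 8 and 73 in their partners, of which single barcodes with Cartpt gave 143, 431, 29 and 592. Without the highest barcode on each side they were 69, 32, 73 and 476 against 12, 12, 6 and 33, so the sum was higher in 4 of 4 libraries with and without them. At least 3 Avp UMIs were found in 5, 3, 6 and 7 neurons with Cartpt and in 1, 2, 0 and 3 without. The log2 difference was 3.57, and 4.10 with pairs of like depth. When 1 Cartpt UMI was enough to count as positive, it was 0.21.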

How the data were processed

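Droplet libraries of the main olfactory epithelium were analysed from the deposited raw counts, whole numbers of UMIs per gene and barcode. Cell Ranger 6.0.2 is named per the file headers and Cell Ranger 5.0.1 with mm10 per the submitters' processing notes. How cells were called, and with which annotation, is not given in the sources used here. Gene positions came from GENCODE M21, in which 22285 of the listed identifiers (99.5%) were found.

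Both genes and all gene lists were chosen with earlier results of these data known, and the gates were set after values had been seen. Barcodes needed at least 500 genes and at most 10% mitochondrial UMIs. Sensory neurons were gated at 10 UMIs of Omp and immature ones at 5 of Gap43 plus Gng8. Other classes needed 5 UMIs over at least 2 of their markers and a level floor in CPM. Barcodes that passed gates of several classes (3159) were set aside, and 4853 had no class. Barcodes of high doublet score (7.73% to 8.18% per library) were kept, and left out only as an alternative. Libraries differed by far more than sampling noise (chi-square per gene 22.6 to 40.9), so none was a duplicate.

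Counts were summed per library and group and tested with edgeR 4.0.16 in R 4.3.3 (quasi-likelihood F test, TMM scaling, Benjamini-Hochberg adjustment at 0.05), with library as a block except between the sexes. DESeq2 1.42.0 was an alternative. Between receptors the dispersion trend was estimated on every 10th gene. Levels by receptor were log2 CPM with a prior count of 2. Tests on simulated data recovered 95.5% of 2-fold changes between the sexes (14673 genes) and 95% between stages. They recovered 86.5% and 98.5% in the pairs for Avp and Cartpt and 100% between receptors. Of the genes called there 3.54%, 2.06%, 5.46%, 4.83% and 1.48% were false, in that order. These shares hold for the simulated data only. In the libraries Ddx3y, with 0 UMIs in females and 818 and 775 in males, had an adjusted p of 0.0461 by edgeR. Groups came from the sample labels. Genes of a matched comparison were named from among the 10 with the lowest p in each direction, not all of which are in the text. Also named were the list genes with the largest changes or F values and those set beside the members. The 10 highest receptors and the genes most like each member over receptors were named as well. Python 3.11.15 with numpy 2.4.6, scipy 1.17.1, pandas 2.3.3 and matplotlib 3.10.9 made the other values and the figures.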

Additional observations from a re-analysis of the deposited data

How the results depend on the processing

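The counts of genes that differed between stages or between receptors stayed within 1.5 times in all alternatives tried, at 9687 to 10014 and 2439 to 2534 without one library each. Between the sexes the count of 2 became 353 with DESeq2, 1 with no filter on low counts, 4 at an Omp gate of 3 UMIs and 1 to 2 without one library each. Female and male libraries share replicate numbers, but their deviations did not go together (r = -0.02 over 14630 genes). With the replicate number as a block the count was 1, the log2 difference of Avp was 0.68 (adjusted p = 0.487 by edgeR) and that of Cartpt 0.23 (0.479). The gene no longer called was Ddx3y (adjusted p = 0.121), and the block was fitted for the sexes alone. The sex difference of Cartpt ran from -0.0127, without female 1, to 0.49, and that of Avp from 0.46 to 0.93.

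The count for neurons with Avp (103) was 15 with DESeq2, 37 without barcodes of high doublet score, 22 when 1 UMI was enough, 17 with pairs of like depth and 59 to 116 without one library each. The count for neurons with Cartpt (1553) was 453 with DESeq2, 641 with pairs of like depth and 1004 to 1133 without one library each. The pairs of like depth and the values without Gucy2d barcodes were added after seeing the data.

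Thinned to 2000 UMIs, 1.61% of Omp-positive barcodes had 1 Avp UMI and 0.658% had 3, and for Cartpt 44.1% and 18.8%, as means of libraries. At Omp gates of 3 and 30 UMIs Cartpt was in 58.4% and 67.9% of barcodes at 1 UMI and in 38.1% and 49.0% at 3. The SD over receptors of log2 Avp was 1.59. It was 1.95 with the receptor at 10 UMIs and 95%, 1.12 and 2.11 with 5 and 20 barcodes per library, 1.67 without high doublet scores, 2.03 at a prior count of 0.5 and 1.60 to 1.62 without one library each. For Cartpt, 1.42 became 1.69, 1.22 and 1.60 with 5 barcodes, 20 barcodes and the prior of 0.5. The cause of these shifts was not tested. At 10 barcodes per receptor and library, 1 barcode can set a level.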
